A study of Mus musculus with 3 samples.

Results

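The immunity-related GTPases described here are 8 mouse genes, Irgm1, Irgm2, Igtp, Iigp1, Ifi47, Tgtp1, Tgtp2 and Gvin1, out of 55536 annotated genes. They were chosen by gene symbol, with earlier results of these data known, and were joined by gene identifier between both quantifications of each library. The RNA came from primary bone-marrow-derived macrophages of C57BL/6J mice, and all 3 libraries belong to 1 group. These cells met Lipid A, the part of bacterial lipopolysaccharide that Toll-like receptor 4 senses, at 100 ng/ml during 12 hours, spent 12 hours without it after a wash, and met the same dose again 50 minutes before harvest. The chromatin fraction, which holds transcripts still attached to their template as well as retained RNA, was sequenced as total RNA after removal of ribosomal RNA, with input amounts of 1 µg, 250 ng and 500 ng in replicates 1, 2 and 3. The age and sex of the mice were not collected, and the libraries are labelled biological replicates 1, 2 and 3 of 1 named donor. Nothing states that animals or cultures were separate, so the spread given here may be biological or technical.

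Immunity-related GTPases are interferon-inducible proteins that defend mouse cells against pathogens living inside membrane vacuoles. The effector members, among them IRGA6 (encoded by Iigp1), IRGB6 (encoded by Tgtp1 and Tgtp2) and IRGD (encoded by Ifi47), load onto the vacuole and help to disrupt it. The regulatory members IRGM1, IRGM2 and IRGM3 (encoded by Irgm1, Irgm2 and Igtp) sit on the cell's own membranes and hold the effectors in check there. Gvin1 encodes a very large interferon-inducible GTPase of a related family. Guanylate-binding proteins and the machinery that conjugates ATG8 proteins to membranes act with the effectors at the vacuole.

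Transcription of these genes is classically driven through interferon-stimulated response elements, which factors such as IRF9 and IRF1 recognise, and through gamma-activated sites. The stretches below are shown because 4 of the members carry both elements in the same arrangement next to their start. They are 80-base pieces upstream of the annotated start, 5′ to 3′ on the gene's strand, from RefSeq (GRCm38.p6), which held an entry for 6 of the 8 members. Capitals mark the gamma-activated site (TTCNNNGAA) and the core of the interferon-stimulated response element (GAAA and GAAA with any 2 bases between them); in Irgm1 they mark a pair of overlapping response element cores.
Irgm1: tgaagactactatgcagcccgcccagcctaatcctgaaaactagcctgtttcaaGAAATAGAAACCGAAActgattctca
Irgm2: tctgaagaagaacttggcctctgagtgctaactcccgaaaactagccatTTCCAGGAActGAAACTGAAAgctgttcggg
Igtp: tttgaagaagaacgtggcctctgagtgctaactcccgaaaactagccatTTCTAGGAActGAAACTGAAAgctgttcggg
Tgtp1: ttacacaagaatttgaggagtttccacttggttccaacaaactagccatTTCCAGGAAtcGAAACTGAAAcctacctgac
Tgtp2: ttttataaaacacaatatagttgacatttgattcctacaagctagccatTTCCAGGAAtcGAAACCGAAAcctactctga

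These stretches lie on the minus strand at chr11:48871425-48871504 (Irgm1), on the plus strand at chr11:58214853-58214932 (Irgm2) and chr11:58199462-58199541 (Igtp), and on the minus strand at chr11:48992304-48992383 (Tgtp1) and chr11:49064263-49064342 (Tgtp2). By the GENCODE annotation, the Irgm1 stretch falls in an exon of the noncoding transcript Irgm1-203, the Irgm2 and Tgtp1 stretches fall in introns of longer transcripts of those genes, and the Tgtp1 and Tgtp2 stretches fall in an intron of Olfr56 on the other strand. The Igtp stretch lies in no annotated gene.

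Each of the 4 paired arrangements put the gamma-activated site upstream, left 2 bases, and followed with the response element core. The pair spanned bases 45 to 25 upstream of the start in Igtp, 75 to 55 in Irgm2, 81 to 61 in Tgtp2 and 88 to 68 in Tgtp1. Written out as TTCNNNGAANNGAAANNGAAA and searched on both strands, the arrangement occurred in 5 of 32851 promoters of 27025 genes (0.0152%, within the 250 bases before the start): these 4 and that of Gm12185, a neighbour with which Tgtp1 shares exon sequence. Gm12185 is counted below among the further immunity-related and giant GTPase genes. By GENCODE, it starts on the same strand at base 48992226 of chromosome 11, so the 250 bases before it cover the Tgtp1 stretch. Its match may therefore be the Tgtp1 site counted again. The paired pattern was read from the members' own promoters and then counted, so its rarity is a description. Singly, the response element core was present in 2.98% of all promoters and the gamma-activated site in 7.02%. Of the 6 members matched, 5 held the response element core. The stretch listed for Ifi47, which belongs to the start of its longest transcript, Ifi47-202, did not. That transcript carried 9.77% of the Ifi47 level in the alignment-based and 13.0% in the read-based quantification. The other annotated Ifi47 transcripts start at bases 49086700 to 49088264 of chromosome 11, and the listed stretch does not cover the bases before those starts.

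The similarity reached beyond the marked letters. All 4 paired stretches held CTAGCCATTTC, a word of 11 letters that 8 promoters (0.0244%) contained on either strand. The Igtp and Irgm2 stretches differed at 3 of 80 positions, whereas those of Tgtp1 and Tgtp2 differed at 24. Over the full 250 bases, promoter identity was 68.9% between Igtp and Irgm2, 62.6% between Tgtp1 and Tgtp2, and 46.1% to 55.4% between the other pairs. A kappa B site, the element bound by the NF-κB factors that Lipid A activates, was searched on both strands as GGG and TCC with any 4 bases between them. It was present in 16.5% of promoters and in 1 of the 6 members, Irgm2 (bases 225 to 216 upstream). A match of letters shows neither binding nor use of a site, and a missing match concerns only these letters in this window.

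All 8 genes were present in the chromatin-associated RNA. Levels are given as TPM, a relative abundance corrected for transcript length and depth. With a gene called detected where all 3 libraries reached 1 TPM, 8 of 8 members were detected, against 39.2% of protein-coding genes and 20.2% of all annotated genes. The median member level was 52.7 TPM, against 9.95 TPM for detected protein-coding genes. The members drew 53614, 40316 and 37565 expected counts in replicates 1, 2 and 3, which was 0.391%, 0.206% and 0.195% of the counts in genes. Gvin1, the longest, supplied 67.1% of these counts. Library totals ran from 13897176 to 19597343 expected counts. Cells never exposed to Lipid A were not analysed here, so the values do not measure induction. In bulk RNA fewer expressing cells and less RNA per cell cannot be told apart.

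The effector gene Iigp1 (ENSMUSG00000054072.12, mm10 chromosome 18, 60376027 to 60392634, plus strand) had the highest level, with 416.26, 237.5 and 162.52 TPM in replicates 1, 2 and 3 (272 ± 130 TPM, SD, n = 3). It ranked 149 among protein-coding genes by mean TPM. Its lowest library drew 5000 expected counts. Ifi47 (ENSMUSG00000078920.3, chromosome 11, 49076587 to 49096974, plus strand) stood at 70.89, 40.81 and 33.8 TPM (48.5 ± 19.7).

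Both IRGB6 genes lay on chromosome 11 as well. Tgtp2 (ENSMUSG00000078921.3, 49057194 to 49064206, minus strand) stood at 98.02, 46.31 and 26.48 TPM (56.9 ± 36.9). Tgtp1 (ENSMUSG00000078922.9, 48985327 to 48994172, minus strand) was the lowest member, at 10.59, 3.94 and 1.19 TPM (5.24 ± 4.83). In both genes the 3 libraries stood apart by more than the deposited credible intervals, which for Tgtp1 were 8.52 to 12.2, 3.12 to 5.59 and 0.857 to 2.82 TPM. Those intervals belong to the posterior mean TPM, a separate deposited estimate, so a TPM printed here can lie outside its interval. They describe 1 library each and do not cover differences between libraries.

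Among the regulators, Irgm1 (ENSMUSG00000046879.7, chromosome 11, 48861968 to 48871683, minus strand) was the highest, at 76.73, 62.85 and 58.61 TPM (66.1 ± 9.48). It was the single member with overlapping credible intervals. These were 56.3 to 61.3 TPM in replicate 2 (posterior mean 58.79) and 52.2 to 57.2 in replicate 3 (posterior mean 54.64). The other 23 of 24 library pairs of the 8 genes did not overlap. Irgm2 (ENSMUSG00000069874.7, chromosome 11, 58199618 to 58222782, plus strand) stood at 30.1, 21.74 and 15.17 TPM (22.3 ± 7.48). Igtp (ENSMUSG00000078853.8, chromosome 11, 58199556 to 58207591, plus strand) stood at 21.08, 10.18 and 7.4 TPM (12.9 ± 7.23). Within every library the regulators kept the order Irgm1, Irgm2, Igtp.

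Gvin1 (ENSMUSG00000045868.12, chromosome 7, 106156556 to 106215326, minus strand) was the second-ranked member per unit of length, at 292.86, 168.62 and 196.19 TPM (219 ± 65.2). By raw counts it ranked 26 among protein-coding genes, with 34326.8, 25981 and 27890.2 expected counts. Unlike the other 7 members, its lowest library was replicate 2.

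**Figure D1:**
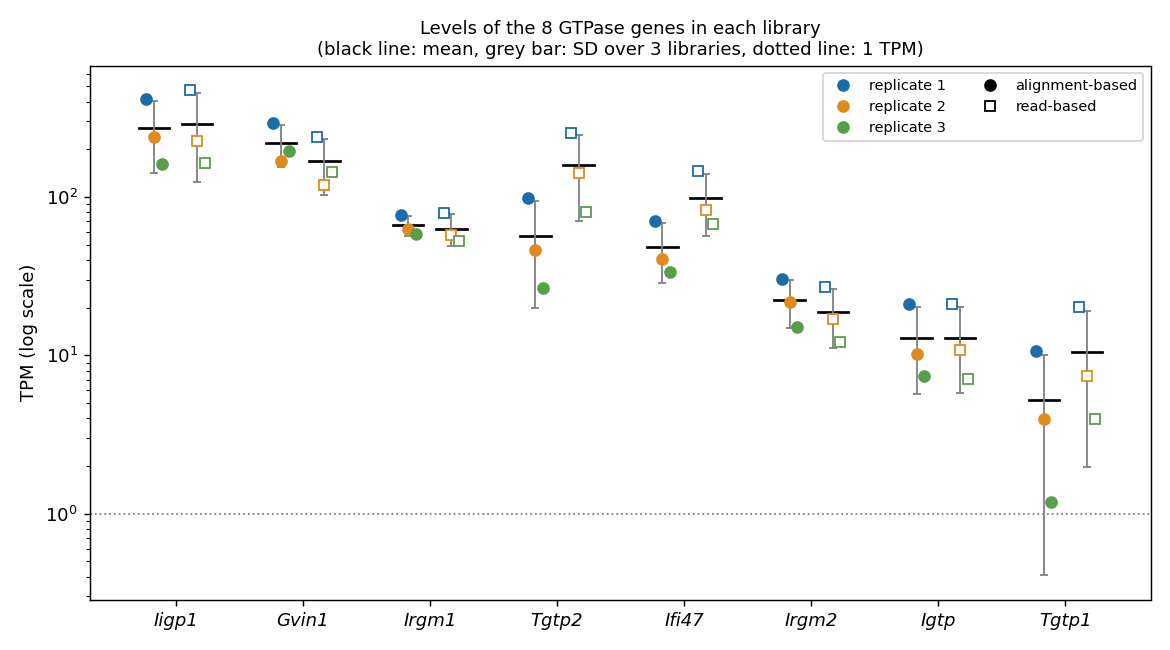
Level of each of the 8 genes in TPM on a log axis, with filled circles for the alignment-based and open squares for the read-based tables, coloured by replicate; the black line is the mean and the grey bar the SD over 3 libraries, and the dotted line is the detection limit of 1 TPM. Replicate 1 is the highest point of every gene in both quantifications, and Tgtp2, Ifi47 and Tgtp1 sit higher in the read-based tables.

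The levels formed steps. Differences between neighbours in the order were taken within each library as log2(TPM + 1), and an exact two-sided sign-flip permutation test was applied to each of the 7 pairs; with 3 libraries it cannot give a p under 0.25 (Benjamini-Hochberg adjusted 0.438), so no pair could pass a threshold of 0.05. Gvin1 exceeded Irgm1 by 1.68 ± 0.26 on the log2 scale, Ifi47 exceeded Irgm2 by 1.06 ± 0.17, Irgm2 exceeded Igtp by 0.82 ± 0.29 and Igtp exceeded Tgtp1 by 1.35 ± 0.53. Each of these 4 differences was positive in 3 of 3 libraries and larger than its SD. The pairs and their direction came from the mean TPM of the same 3 libraries, so the signs are a description. Iigp1 and Gvin1 (0.24 ± 0.44), Irgm1 and Tgtp2 (0.40 ± 0.73), and Tgtp2 and Ifi47 (0.10 ± 0.41) did not differ beyond their spread, and each of these pairs changed order in 1 library. The order also depended on the quantification. In the read-based tables Tgtp2 lay above Irgm1, with a log2 difference of Irgm1 over Tgtp2 of -1.18 ± 0.54. Tgtp2 also lay above Gvin1 there in replicates 1 and 2 (254 and 142 against 240 and 118 TPM), but not in replicate 3 (80.2 against 144 TPM). The read-based mean of Ifi47 (98.6 ± 41.7 TPM) was above that of Irgm1 (63.1 ± 14.4 TPM). Igtp exceeded Tgtp1 by 0.42 ± 0.33 on the log2 scale there.

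Every member had its highest relative level in replicate 1. It was the highest library for 8 of 8 members, against 22.2% of detected protein-coding genes, and the highest with replicate 3 lowest for 7 of 8, against 10.6%. It exceeded both other libraries at least 1.5-fold for 5 of 8 members, against 3.87%. The members share libraries and several share sequence, so these are not 8 independent observations.

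The log2 ratio of replicate 1 over replicate 3, on the log2(TPM + 1) scale, ranged from 0.38 in Irgm1 to 2.40 in Tgtp1, with Tgtp2 at 1.85, Igtp at 1.39 and Iigp1 at 1.35. Over replicate 2 it ranged from 0.28 in Irgm1 to 1.23 in Tgtp1. The member median was 0.80 over replicate 2 and 1.20 over replicate 3, whereas the median of all 8638 detected protein-coding genes was -0.26 and -0.087. With TMM scaling of the rounded counts, which evens out library composition, the member medians were 1.05 and 1.27, against -0.086 and -0.070 for all.

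Replicate 1 was also the library of largest input and lowest depth; the part of either in this pattern was not tested. The macrophage markers, detected in 10 of 10 cases, were highest in replicate 2 in sum, with 1364, 1486 and 1330 TPM in replicates 1, 2 and 3. Adgre1 alone gave 385.53, 539.21 and 328.71 TPM of these sums. Of the 10 markers, 4 were highest in replicate 1, against 22.2% of detected protein-coding genes. In the alignment-based tables none of 8 neutrophil, 6 dendritic cell, 5 B cell and 5 stromal markers was detected, with sums of 0.20 to 0.58 TPM, 1.10 to 1.95 TPM, 0.020 to 0.16 TPM and 1.27 to 3.56 TPM. Of the 7 T and natural killer cell markers, Cd4, which macrophages can also express, was detected there (sum 2.62 to 3.41 TPM), and Cd3d, Cd3e, Cd3g, Ncr1 and Klrb1c had 0 counts in all 3 libraries. The read-based tables differed for some of these genes. They gave Cd3d 12.5, 15.6 and 18.8 TPM in replicates 1, 2 and 3 (15.7 ± 3.18), Cd8a 1.57 ± 0.17 TPM and Cd4 4.43 ± 0.42 TPM, so that 3 of the 7 were detected, while Cd3e stood at 0.065 ± 0.061 TPM and Ncr1 and Klrb1c at 0. Pecam1, listed with the stromal markers, stood at 3.24, 9.51 and 11.0 TPM there, and Zbtb46 of dendritic cells at 1.40 ± 0.15 TPM. The alignment-based sums of these other cell types, stromal markers apart, were highest in replicate 1, whereas of the read-based sums those of T and natural killer cells (19.2, 22.7 and 25.2 TPM), of B cells (0.53, 1.16 and 0.68 TPM) and of stromal cells (3.70, 12.4 and 14.1 TPM) were lowest in replicate 1. Their part in the member levels was not tested.

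**Figure D2:**
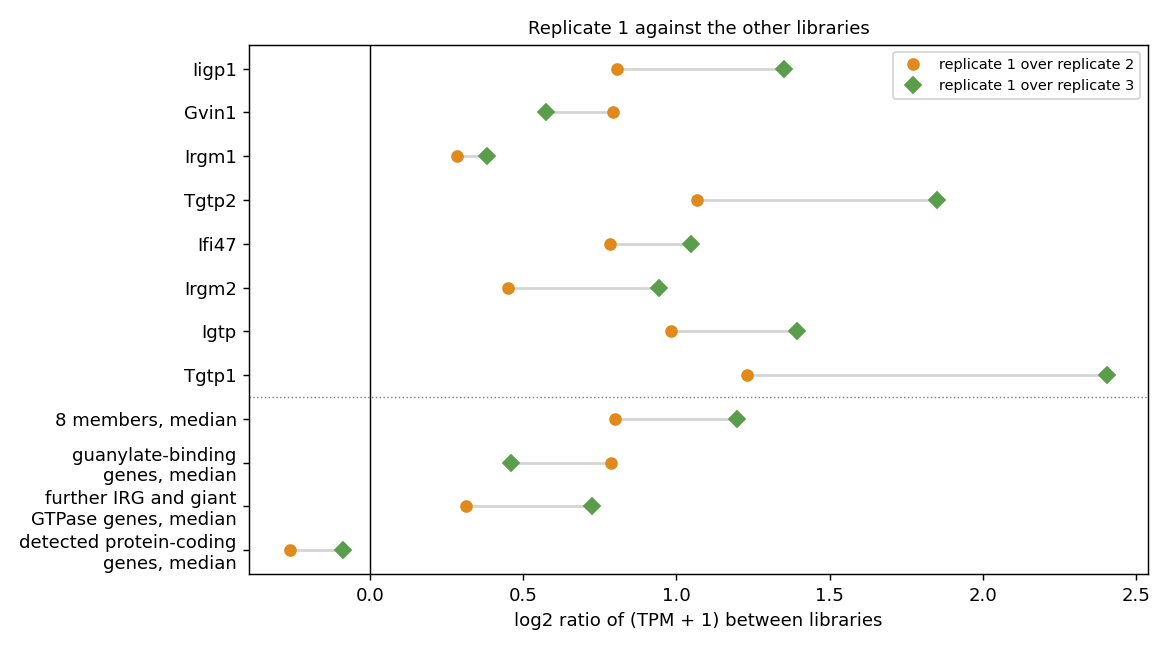
Log2 ratio of (TPM + 1) in replicate 1 over replicate 2 (circles) and over replicate 3 (diamonds), for each gene and, below the dotted line, as the median of 4 sets. Every gene lies to the right of 0, from 0.28 to 2.40, while the median of detected protein-coding genes lies at -0.26 and -0.087.

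The spread of single members was set against the 500 detected genes closest in mean TPM. The coefficient of variation over the 3 libraries was 92.2% for Tgtp1, above 100% of those genes, 64.9% for Tgtp2 (above 98.8%), 56.1% for Igtp (above 96.4%) and 47.9% for Iigp1 (above 96%). Ifi47 at 40.6%, Irgm2 at 33.5% and Gvin1 at 29.8% exceeded 92.8%, 89.6% and 77.2% of theirs. Irgm1 had the lowest value, 14.3%, above 37.6% of its near genes. Its place depended on the scaling: with TMM its coefficient of variation was 23.0%, above 69.4% of near genes, and all 8 members then lay above the middle of theirs; in the read-based tables it was 22.8%. The member median was 44.3%, against 22.7% for detected protein-coding genes, and it was 23.8% without replicate 1.

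The pattern over the 3 libraries can be named by its nearest genes. Among 4309 protein-coding genes with a mean of at least 10 TPM, 7 lay within 0.25 of the members' mean log2(TPM + 1) profile (root mean square distance over 3 libraries). The closest 5 were Rps24 (distance 0.16), which encodes a ribosomal protein, Cfb (0.18), which encodes complement factor B, H2-T24 (0.19), a nonclassical class I histocompatibility gene, Ciz1 (0.21) and Arid5a (0.23), which encodes an RNA-binding regulator of inflammatory transcripts. With 3 points, likeness to this profile is a description only.

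Most of the Iigp1 TPM did not lie on its coding transcripts. Iigp1-205 and Iigp1-203 are noncoding processed transcripts of 1334 and 1701 bases, shorter than the coding Iigp1-201 and Iigp1-202 (3121 and 2927 bases). Their share of the reads is smaller than their share of TPM, which is corrected for length. These processed transcripts carried 35.9% and 25.5% of the gene's alignment-based TPM and 33.1% and 28.6% of its read-based TPM. They end 2.65 and 4.11 kb from the start of a gene of 16.6 kb and do not reach its last exon. In replicates 1, 2 and 3 the protein-coding share was 37.3%, 37.8% and 43.6% (39.5% ± 3.54), and 39.4% ± 3.39 in the read-based tables. The median share over detected protein-coding genes was 56.1% and 48.0%. Coding transcripts alone gave Iigp1 105 ± 44.2 TPM, which put it below Gvin1, with a log2 difference of -1.09 ± 0.32.

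Which coding transcript carried Iigp1 was not settled by these data: Iigp1-202 took 35.5% of the TPM by alignment and 12.1% from the reads, and Iigp1-201 took 3.15% and 26.1%. The 2 differ by an internal exon and share the last exon. Irgm1 had a protein-coding share of 94.4% ± 1.58, Tgtp2 85.1% ± 1.76 in the alignment-based tables, and the other 5 genes 100%, since no noncoding transcript of theirs is annotated.

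**Figure D3:**
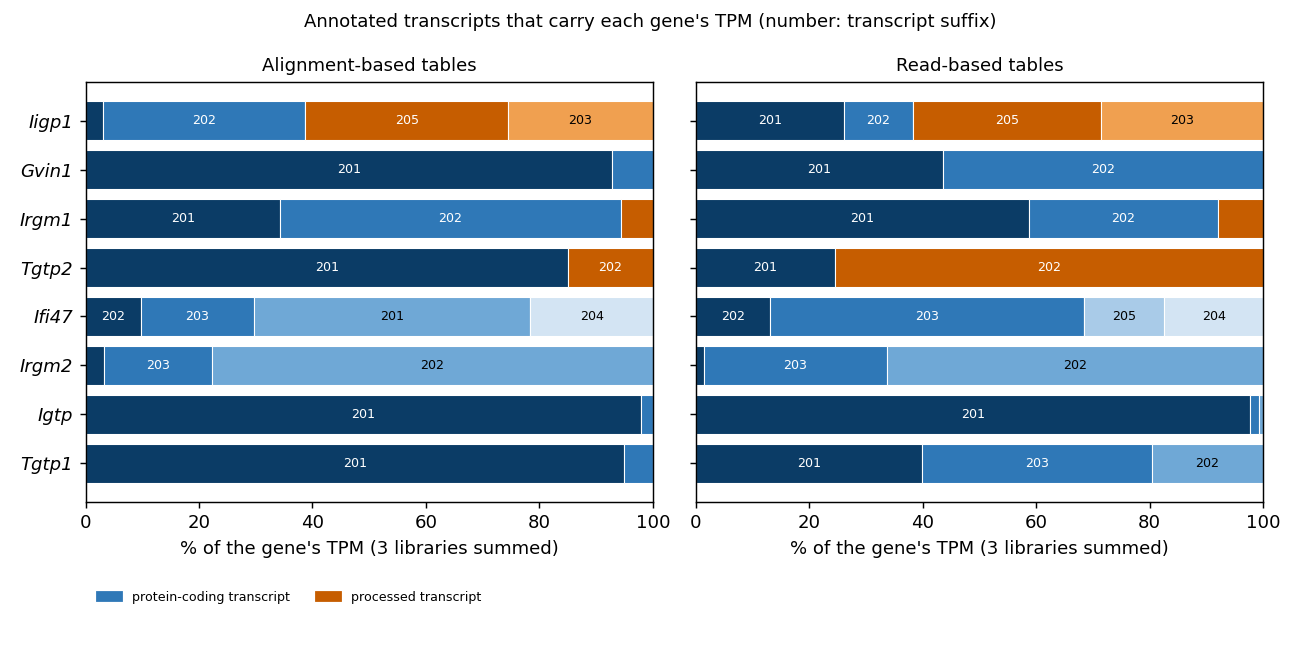
Share of each gene's TPM, in percent over 3 libraries summed, carried by each annotated transcript, in the alignment-based tables on the left and the read-based tables on the right; blue shades are protein-coding and orange shades noncoding processed transcripts, and numbers are transcript suffixes. Orange fills 61.3% of Iigp1 in the left panel, and Tgtp2-202 fills 14.9% of Tgtp2 on the left and 75.4% on the right.

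Both quantifications use the same reads and differed by gene. Read-based TPM was at least 1.5 times the alignment-based value in every library for 3 of 8 members, near the 25.9% of detected protein-coding genes for which this held; for 0 of 8 was it lower by as much, against 0.313%. Tgtp2 stood at 159 ± 88.3 TPM from the reads against 56.9 by alignment, a log2 difference of 1.51 ± 0.12. Ifi47 stood at 98.6 ± 41.7 against 48.5 TPM (1.00 ± 0.03) and Tgtp1 at 10.5 ± 8.50 against 5.24 TPM (0.93 ± 0.22). The sign was the same in 3 of 3 libraries for each, and the exact sign-flip permutation p was 0.25, the smallest possible (adjusted 0.4).

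In each of these 3 genes short transcripts held a larger share of TPM in the read-based tables. A transcript shorter than the others of its gene holds a smaller share of the reads than of the TPM. Tgtp2-202, a processed transcript of 370 bases, held 75.4% of the read-based Tgtp2 TPM against 14.9% by alignment. Ifi47-203, of 703 bases, held 55.5% against 19.9%, and Ifi47-201, of 1690 bases, held 0% against 48.7%. Tgtp1-203 (764 bases) and Tgtp1-202 (373 bases) held 40.5% and 19.6% against 5.09% and 0%. The read-based coding share of Tgtp2 was therefore 23.2% ± 4.26.

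For the remaining members the quantifications lay closer. The log2 difference of read-based over alignment-based TPM was -0.41 ± 0.11 for Gvin1 and -0.26 ± 0.10 for Irgm2, negative in 3 of 3 libraries. It was within its SD for Iigp1 (0.04 ± 0.13), Irgm1 (-0.08 ± 0.11) and Igtp (0.0026 ± 0.065). Igtp-201 carried 97.9% of the Igtp TPM by alignment and 97.7% from the reads.

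The members differed widely in how much transcript sequence they share with other genes. Each gene's annotated transcripts were cut into all words of 31 bases and looked up in the transcripts of every other gene. Gvin1 shared 99.7% of its words with another gene, Tgtp2 90.5% and Tgtp1 84.4%. Igtp shared 15.9%, Irgm2 10.7%, Iigp1 6.92%, Ifi47 6.37% and Irgm1 2.88%.

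**Figure D4:**
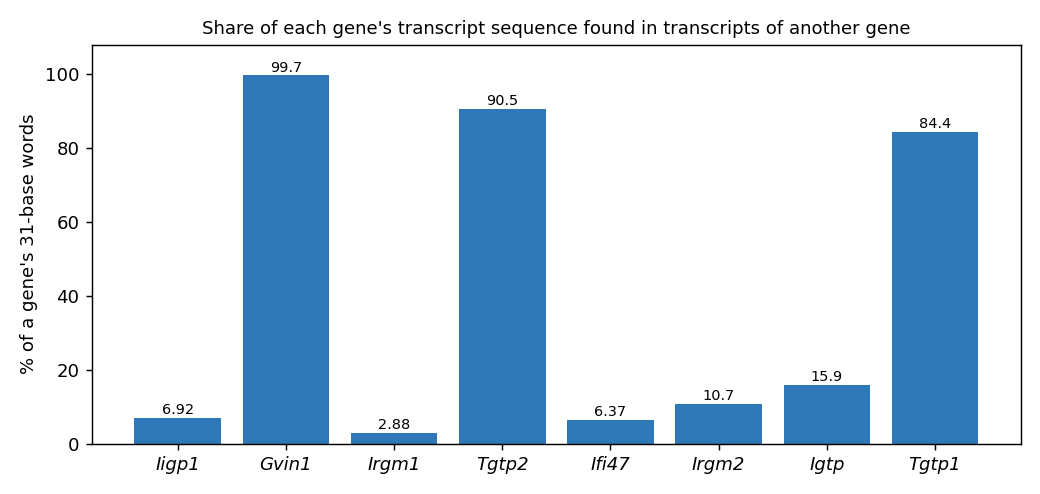
Percent of each gene's distinct 31-base transcript words that also occur in transcripts of any other gene, as bars from 0. Gvin1 at 99.7%, Tgtp2 at 90.5% and Tgtp1 at 84.4% stand above the other 5 genes, which lie between 2.88% and 15.9%.

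The coding sequences of Tgtp1 and Tgtp2, both of 1245 bases, were 99.7% identical. Reads from either can hardly be assigned, and the split between them is uncertain: Tgtp1 took 9.75%, 7.84% and 4.30% of their summed TPM in replicates 1, 2 and 3 by alignment and 7.32%, 4.94% and 4.72% from the reads. Their sum does not rest on that split, but it depends on the quantification. By alignment it was 62.2 ± 41.8 TPM and differed 3.93-fold between the highest and lowest library. From the reads, Tgtp2 alone stood at 159 ± 88.3 TPM and Tgtp1 at 10.5 ± 8.50 TPM. In both quantifications replicate 1 was the highest library, and replicate 3 the lowest, for the pair as well.

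Among the other members, identity of the coding sequences was highest within a functional class. The regulators were 69.7% (Irgm2 and Igtp), 66.9% (Irgm1 and Igtp) and 65.2% (Irgm1 and Irgm2) identical. Effectors were 58.8% to 61.4% identical to one another, apart from the Tgtp pair, and effector against regulator comparisons gave 54.7% to 56.7%. Coding lengths of these 7 genes lay between 1221 and 1269 bases, and that of Gvin1 was 7281.

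Gvin1 has a near copy, Gm4070 (chromosome 7, 105895139 to 105953967, minus strand), which lies 203 kb away and holds 99.0% of its 31-base words. Gm4070 stood at 386.08, 201.08 and 238.86 TPM (275 ± 97.7), with the same order of libraries as Gvin1. Summed, the pair gave 678.94, 369.7 and 435.05 TPM (495 ± 163) by alignment and 677 ± 436 TPM from the reads, where replicate 1 of Gm4070 alone reached 938.866 TPM. The level of Gvin1 alone is uncertain for this reason.

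Of the 8 genes, 6 lie on chromosome 11 in 2 clusters 9.10 Mb apart. The first holds Irgm1, Tgtp1, Tgtp2 and Ifi47 within 235 kb, and the second holds Igtp and Irgm2 within 23.2 kb on the same strand. Irgm2-201 starts 62 bases after Igtp, inside its first exon, and 162 exon bases are common to both genes. That transcript carried 3.18% of the Irgm2 TPM by alignment and 1.34% from the reads; Irgm2-202 and Irgm2-203, which start 15.5 kb from the Igtp start and beyond its last exon, carried the rest.

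**Figure D5:**
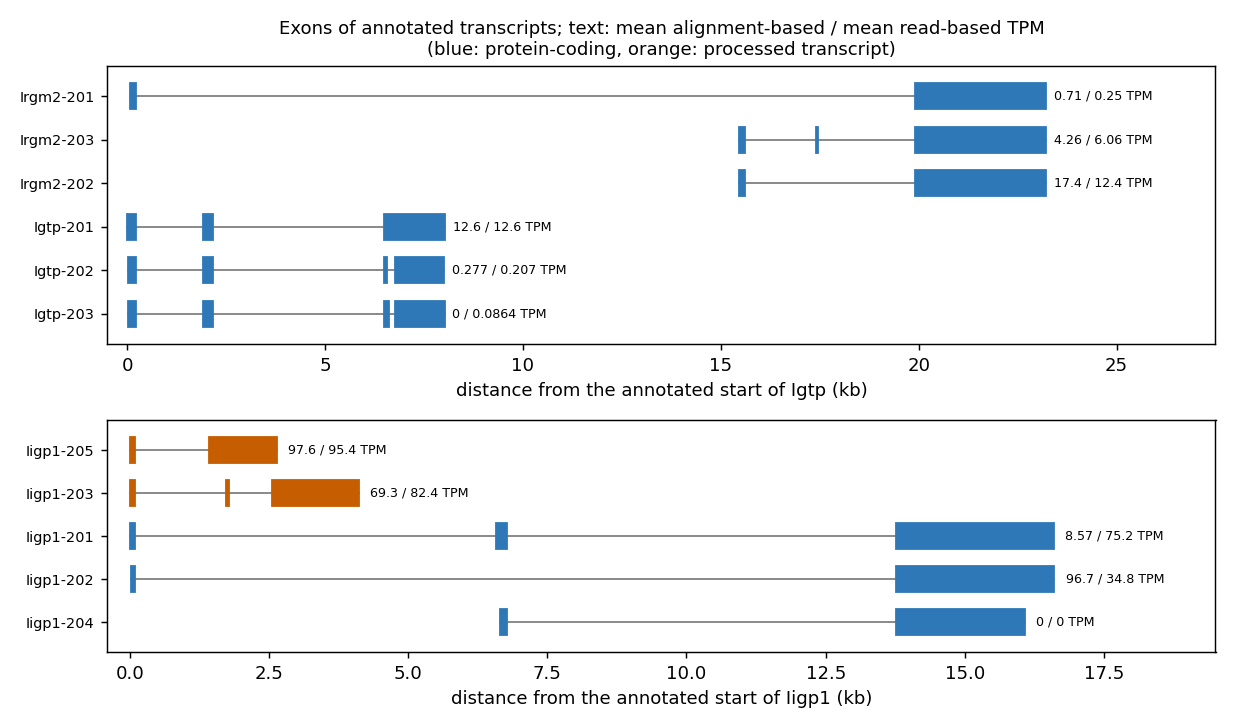
Exons (boxes) and introns (lines) of the annotated transcripts of Igtp and Irgm2 (top) and Iigp1 (bottom) against distance from the annotated gene start in kb, with the mean alignment-based and read-based TPM of each printed beside it; blue is protein-coding and orange a noncoding processed transcript. Irgm2-201 begins inside the first exon of Igtp and carries 0.71 TPM by alignment, and the orange Iigp1 transcripts end 2.65 and 4.11 kb from the start.

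The use of strand in counting was not given in the sources used here, so values of overlapping genes are uncertain. Ifi47 overlaps the antisense pseudogene Gm12188 over 106 exon bases, and Gm12188 stood at 56.1 ± 14.7 TPM, close to Ifi47 itself. Ifi47 also shares 111 exon bases with Olfr56 on its own strand (9.69 ± 4.54 TPM). Tgtp1 shares 223 exon bases with Gm12185 (7.98 ± 3.03 TPM). An intron of Gvin1 contains the pseudogene Gm18853, listed at 196 ± 92.1 TPM.

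Within 100 kb of a member lay 22 other protein-coding genes, of which 16 were detected. The highest 3 were further GTPases of the family, 9930111J21Rik2 at 77.9 ± 27.9 TPM, 9930111J21Rik1 at 72.1 ± 20.4 TPM and F830016B08Rik at 57.0 ± 4.42 TPM; another, Gm5431, stood at 31.9 ± 9.64 TPM. Of unrelated genes, Psme2b stood at 37.6 ± 7.52 TPM, Rack1 at 29.0 ± 3.90, Trim41 at 24.1 ± 7.82, Smim3 at 13.2 ± 5.08, Olfr1396 at 12.0 ± 6.86, Zfp692 at 11.8 ± 3.22 and Zfp672 at 6.59 ± 2.49. Cnot8 (4.04 ± 1.74), Trim7 (2.56 ± 0.856) and Gemin5 (1.94 ± 1.05) were the lowest. Replicate 1 was the highest library for 7 of the 16, namely the 4 GTPases just named, Gm12185, Olfr56 and Olfr1396. Gm12185 is also counted among the further family genes below.

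Further genes of the family were widely present. Of 16 annotated immunity-related and giant GTPase genes outside the 8, 14 were detected, with a list median of 27.2 TPM. The highest were Gm8995 (285 ± 61.6 TPM), annotated as a pseudogene, Gm4070, and Gm5970 (88.2 ± 46.3 TPM). Irgc1 (0.26 ± 0.020 TPM) and Gm8989 (0.020 ± 0.017 TPM) were not detected. Gm12250, which is annotated as a processed pseudogene but encodes IRGB10, lies next to Igtp and stood at 22.5 ± 8.26 TPM. Replicate 1 was the highest library for 12 of the 14.

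Guanylate-binding protein genes were higher, with 10 of 11 detected and a list median of 102 TPM. Gbp5, which promotes inflammasome assembly, stood at 1028.3, 482.12 and 637.19 TPM in replicates 1, 2 and 3 (716 ± 281). Gbp6 stood at 306 ± 96.7 TPM and Gbp8 at 116 ± 31.4 TPM, and Gbp2b at 0.20 ± 0.14 TPM was not detected. Replicate 1 was the highest library for all 10, as for the members, and replicate 3 exceeded replicate 2 for 7 of the 10. The median log2 ratio of replicate 1 was 0.79 over replicate 2 and 0.46 over replicate 3, against 0.80 and 1.20 for the members.

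The ATG8 conjugation genes, whose products help to direct the GTPases, were lower and did not share that pattern. They numbered 11 detected of 12, their median was 12.0 TPM, and replicate 1 was the highest library for 1 of them. Atg7, an activating enzyme, stood at 44.4 ± 5.50 TPM, Atg16l1, a scaffold of the conjugating complex, at 40.1 ± 6.24 TPM and the ATG8 gene Gabarap at 23.7 ± 4.80 TPM. Map1lc3a (0.36 ± 0.30 TPM) was not detected.

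Ubiquitin ligases and adaptors of the vacuole gave 7 of 8 detected and a median of 66.6 TPM, and replicate 1 was the highest library for 2. The highest were the autophagy receptor gene Sqstm1, with 923.97, 466.87 and 1017.77 TPM in replicates 1, 2 and 3, Rabgef1, which encodes an exchange factor for RAB5 (82.9 ± 18.6 TPM), and Tax1bp1, another autophagy receptor gene (77.2 ± 14.8 TPM). Calcoco2 was listed at 0 counts in every library.

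Upstream, the genes of interferon signalling numbered 11 detected of 13, and their median was 55.7 TPM. The transcription factor gene Irf1 was the highest, at 945.91, 662.62 and 734.48 TPM in replicates 1, 2 and 3, followed by Stat2 at 623.4, 408.69 and 351.81 TPM (461 ± 143). Stat2 thus shared the order of libraries with 7 members, whereas Irf1 was lowest in replicate 2. The ligand gene Ifnb1, at 9.51, 0.56 and 4.21 TPM, missed detection in replicate 2, and Ifng was listed at 0 counts in every library. Of the 11 detected genes, 5 were highest in replicate 1, against 22.2% of detected protein-coding genes. Ifnb1, not detected, was also highest there.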

How the data were processed

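Chromatin-associated RNA of 3 libraries, 1 group, was analysed from gene and transcript tables that the authors deposited for mouse build mm10 with GENCODE M21, per the file headers and an accompanying text file. Expected counts are the authors' estimated reads or fragments per gene and need not be whole. TPM values were deposited by the authors for reads aligned to the transcriptome and for a table made directly from the reads. Neither program name was given in the sources used here. The deposited gene tables also hold a signal column, the posterior mean TPM with its credible bounds, whose level is not stated. Read-based totals were 20743071 to 34961536 estimated counts, and rows outside GENCODE genes held 0.206% to 1.25% of the expected counts.

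Gene levels came from the alignment-based gene tables, and read-based transcripts were summed per gene. Differences used log2(TPM + 1). A count of 0 allows up to 3 counts; floors and intervals cover counting error only. CPM was computed over all expected counts, and TMM scaling used edgeR 4.0.16 in R 4.3.3 on counts rounded to whole numbers. The remaining work used Python 3.11.15, pandas 2.3.3, numpy 2.4.6 and Biopython 1.88 (global alignment of coding sequences). The comparison of spread with 500 near genes was tested on simulated data. Alternatives were the read-based tables, CPM, the posterior mean, protein-coding transcripts alone, the Tgtp1 and Tgtp2 sum, other detection limits, a pseudocount of 0.1, TMM and leaving out each replicate; the Gvin1 and Gm4070 sum, the search of 31-base words, the coding identity, the joint promoter pattern and its shared word were added after the data were seen. A protein comparison that had been planned was not run, and protein sequences were not used here.

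The members and the gene lists were chosen with earlier results of these data known. All members were named; of each list, the 3 highest, the lowest and every gene not detected; the 5 nearest patterns; and each detected protein-coding neighbour. Gm12250, Gm12188 and Gm18853 were named after their values were seen. Gm17757 and Gvin2, listed with the family, had no entry under those symbols. The values of 1 gene that this rule would name are not reported here.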

Additional observations from a re-analysis of the deposited data

How the results depend on the processing

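With 1 group and 3 libraries no test could pass 0.05, and relative levels carry no scale in molecules per cell. All 8 members were detected under every alternative except a limit of 5 TPM, which left 7 (without Tgtp1); summing Tgtp1 and Tgtp2 left 7 of 7 loci. The median member level was 52.7 TPM, and it was 80.9 TPM in the read-based tables and 94.8 in CPM, which is not corrected for length; leaving out each replicate gave 36.9 to 62.8 TPM. The median coefficient of variation of 44.3% was 51.1% with TMM scaling, 48.9% in the read-based tables, and 23.8% (without replicate 1) to 56.1% (without replicate 2) when each replicate was left out. In CPM the order of Ifi47 and Irgm2 turned, to a log2 difference of -0.24 ± 0.16; the Irgm2 transcripts are longer. Neighbouring pairs beyond their spread in the main order numbered 4 of 7, and 4 to 6 under the alternatives, not always the same pairs. Iigp1 over Gvin1, within its spread in the main setting, stood at -1.98 ± 0.43 on the log2 scale in CPM. Of the levels of single members, 12 moved by more than 1 SD and 51 did not. The 12 include values in CPM, which is a change of unit. The 51 include the levels without 1 replicate, which cannot move that far. Leaving out 1 of 3 libraries always shifts a mean by less than 1 SD. The 24 values of read-based against alignment-based level without a replicate kept within 1 SD for the same reason, so they test nothing. No paired comparison between conditions was possible because the libraries form 1 group. The detection limit changed no other member, and every level was far above the TPM that 3 counts would give.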
